A study of Mus musculus with 11 samples.

Results

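Collagen chains were followed in the rectal mucosa of 11 mice, measured with 1 Affymetrix Mouse Gene 1.0 ST array per mouse. The members are all genes with a symbol of the form Col, a type number, a and a chain number in the platform annotation, except Col17a1, which was left out. There were 43 such chains among the 19944 genes measured with a single symbol. The study deletes the integrin gene Itga6 from the intestinal epithelial cells of adult mice, in a tamoxifen-inducible line written α6ΔIEC-TAM in the labels. Integrin α6 is part of the hemidesmosome, which ties the base of an epithelial cell to the basement membrane. The 4 mutant tamoxifen mice carried the α6ΔIEC-TAM alleles and received tamoxifen at 10 mg per day. The 3 control tamoxifen mice were wild type and received the same tamoxifen. The 4 mutant NaCl mice carried the mutant alleles and received NaCl in its place. Gavage was given every other day for 5 days from 8 weeks of age, and all mice were 10 weeks old when analysed, 15 days after the first gavage. There was 1 male in each mutant group and 2 males among the 3 controls. Because the deletion is aimed at epithelial cells, the cells of the connective tissue in the same samples keep the gene by design. No group of wild-type mice given NaCl was analysed here, so mutant NaCl and control tamoxifen differ in both genotype and gavage.

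Every collagen molecule is a helix of 3 chains, coded by 1, 2 or 3 different genes. Fibrillar collagens make the cables of connective tissue, type IV collagen makes the sheet of the basement membrane, type VI collagen makes beaded filaments beside it, and type VII collagen makes fibrils that anchor the sheet below. Other chains sit on the surface of fibrils (the FACIT group), carry sugar chains in basement membranes (the multiplexins) or span the cell membrane. In the gut most fibrillar chains come from fibroblasts and smooth muscle of the wall, while basement membrane chains come from several cell types.

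Levels are on the log2 scale of the robust multi-array average (RMA), so a difference of 1 is a doubling, and adjusted p below is limma's p with Benjamini-Hochberg adjustment over all 19944 genes, with a threshold of 0.05. Array medians lay between 7.29 and 7.35, and arrays of a group correlated at 0.988 to 0.997. Itga6 was at 11.75, 11.93, 11.84 and 11.77 in mutant tamoxifen, against 11.15, 11.52 and 11.49 in control tamoxifen and 11.39, 11.28, 11.49 and 11.47 in mutant NaCl. Its level was thus higher in the arrays labelled mutant tamoxifen, by 0.42 ± 0.10 (SE, adjusted p = 0.00949) and 0.41 ± 0.08 (adjusted p = 0.0053), which goes against the label of a deletion. The deposited level summarises probes along the gene, and which exons were deleted is not given in the sources used here, so it does not check the deletion; groups are called by their labels throughout. Epithelial markers were high in every array, with a list mean of 11.84 to 12.21, while smooth muscle markers, at 11.27 to 11.96, were also abundant in samples labelled mucosa. Markers of squamous epithelium, the lining of the anal canal, had a list mean between 6.58 and 9.67. The lowest values were those of control arrays 1 and 3, both from male mice. Replicate numbers only name an array.

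Against mutant NaCl, 8 of 43 chains were higher in mutant tamoxifen, 18.6% of them, and 12.5% of all genes were higher in the same comparison. They were Col18a1, Col6a4, Col1a1, Col5a2, Col1a2, Col6a3, Col3a1 and Col4a1, with differences from 0.81 down to 0.30. The fibril-surface chain Col14a1 was the only chain called lower, by 0.39 (2.33% of chains, against 10.7% of all genes). Against control tamoxifen, Col18a1 alone was higher and Col8a2 alone was lower, 2.33% of the chains in each direction, where 12.9% of all genes were higher and 11.8% were lower. The median difference over the chains was 0.00 against mutant NaCl (-0.01 over all genes) and -0.10 against control tamoxifen (-0.02 over all genes). Against control tamoxifen 31 of 43 chains lay below 0, as did 11294 of 19944 genes. Of the chains dimmer than the median gene 20 of 21 lay below 0, where 6779 of the 9972 dimmer genes did. Of the brighter ones 11 of 22 did, where 4515 of 9972 genes did. After a second quantile normalisation 17 of the 21 dimmer chains lay below 0, with 5506 of the dimmer genes. Of the brighter chains 13 of 22 then did, with 4934 of the brighter genes. With the 7 female arrays alone, 3 in each mutant group, 3 of 43 chains were called higher against mutant NaCl. In the same setting 1742 of 19944 genes were. The 3 chains were Col18a1, Col6a4 and Col5a2. The comparisons share the mutant tamoxifen arrays, so their values stand side by side and one does not repeat the other.

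**Figure D1:**
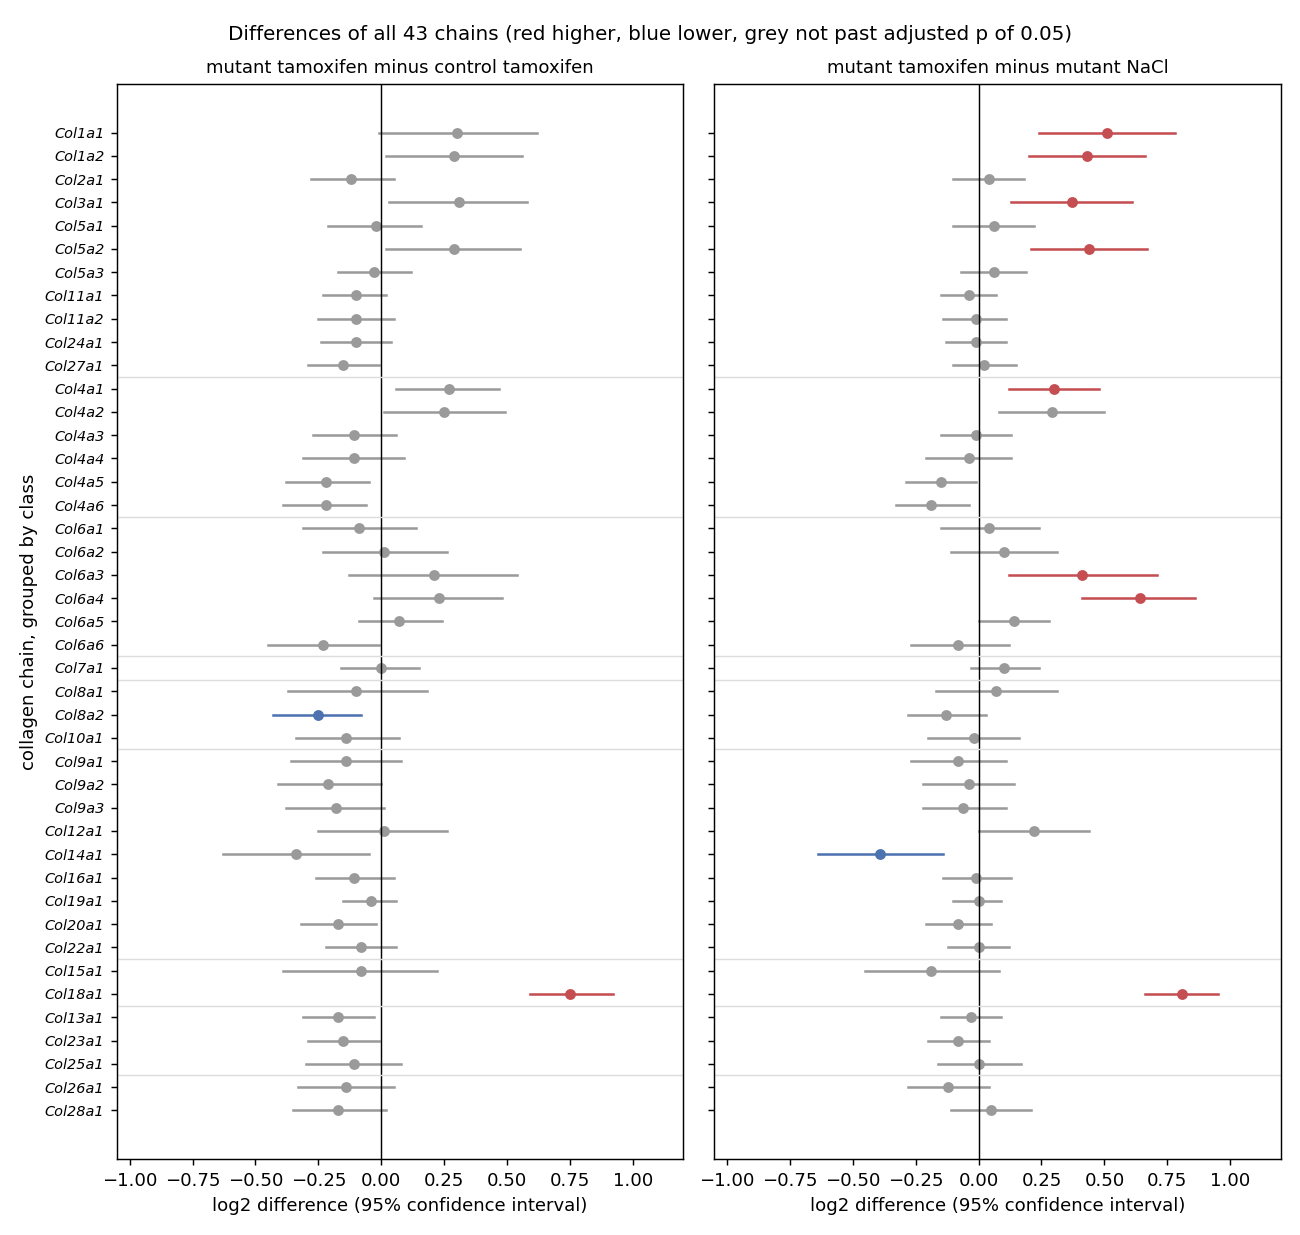
Log2 difference of each of the 43 chains in mutant tamoxifen against control tamoxifen (left) and against mutant NaCl (right), with 95% confidence intervals from limma, grouped by class from the fibrillar chains at the top. Red points passed an adjusted p of 0.05 as higher and blue points as lower; Col18a1 lies farthest right on both sides, at 0.75 and 0.81, and most other chains lie within 0.30 of 0.

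Levels of all 4 mutant tamoxifen arrays lay above all 7 other arrays for 7 chains, Col18a1, Col1a1, Col1a2, Col3a1, Col4a1, Col5a2 and Col6a3, which is 16.3% of the chains where 12.0% of all genes did the same. They lay below all others for 3 chains, Col14a1, Col4a5 and Col4a6, which is 6.98% of the chains against 10.1% of all genes. These counts carry no test. The split followed the level of the chain: 21 chains had a mean under that of the median gene, 7.96, and 22 had a mean over it. All 8 chains called higher against mutant NaCl were among the 22, 36.4% of them, while 20.3% of all genes over that level were higher, and 1 of the 22 was lower (4.55%, against 15.4%). Against control tamoxifen 1 of the 22 was higher (4.55%) where 21.3% of all genes over that level were, and none was lower, where 14.9% were. The files used here give no detection call, so whether transcripts of the 21 dimmer chains were present at all was not measured.

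The multiplexin Col18a1 showed the largest difference of any chain in both comparisons. Its product, collagen XVIII, is a heparan sulphate proteoglycan of epithelial and vascular basement membranes, and its C-terminal fragment is endostatin. Col18a1 was at 9.29, 9.23, 9.32 and 9.34 in mutant tamoxifen, at 8.60, 8.56 and 8.48 in control tamoxifen and at 8.33, 8.59, 8.53 and 8.50 in mutant NaCl. The lowest mutant tamoxifen array lay above the highest of the 7 others. The difference was 0.75 ± 0.07 (SE, 1.68-fold, adjusted p = 0.00017) against control tamoxifen and 0.81 ± 0.06 (1.75-fold, adjusted p = 3.72e-05) against mutant NaCl. It passed the threshold in both comparisons under all 22 alternatives tried, including leaving out each array in turn. The second multiplexin, Col15a1, which sits in the basement membranes of vessels and muscle, differed by -0.08 (95% interval -0.39 to 0.22) and -0.19 (-0.45 to 0.08), and neither difference passed. Array values of Col15a1 overlapped between all 3 groups.

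Promoters of 4 chains called higher against mutant NaCl are shown, from the RefSeq promoter table (assembly GRCm38.p6): Col18a1 and Col6a4, with the largest differences, and Col1a2 and Col3a1, fibrillar chains with like differences. They were chosen after the values were seen. Of the 43 chains 34 have an entry, and each sequence is the 250 bases before an annotated start, 5′ to 3′ on the gene's strand. Capitals mark exact matches on either strand. The TATA box was searched as the letters TATAAA, the CCAAT box by the letters of its name, and the GC box, a site for Sp factors, as the letters GGGCGG; no match overlaps another. Col18a1 has an upstream start (chr10:77166531-77166780, minus strand) and a downstream start (chr10:77113706-77113955, minus strand), and the array value used here does not tell them apart.
Col18a1 upstream: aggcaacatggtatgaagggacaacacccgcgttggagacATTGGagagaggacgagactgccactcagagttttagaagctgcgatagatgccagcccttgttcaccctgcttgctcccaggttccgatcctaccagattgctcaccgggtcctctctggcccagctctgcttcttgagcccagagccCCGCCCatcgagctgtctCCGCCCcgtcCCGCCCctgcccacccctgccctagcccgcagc
Col18a1 downstream: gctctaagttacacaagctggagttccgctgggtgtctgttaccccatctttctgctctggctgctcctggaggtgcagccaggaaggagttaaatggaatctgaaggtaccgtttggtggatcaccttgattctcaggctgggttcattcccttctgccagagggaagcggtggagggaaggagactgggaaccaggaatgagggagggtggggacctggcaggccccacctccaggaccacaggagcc
The upstream window holds 3 GC boxes and 1 CCAAT box and is 62% G and C, while the downstream window holds none of these motifs. Over the chains, 22 of 37 entries hold a GC box (59.5%), 12 a CCAAT box (32.4%) and 4 a TATA box (10.8%), where 32.7%, 33.8% and 12.4% of all 32851 promoters of the same length do. A match is a match of letters and not a measured binding site.

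**Figure D2:**
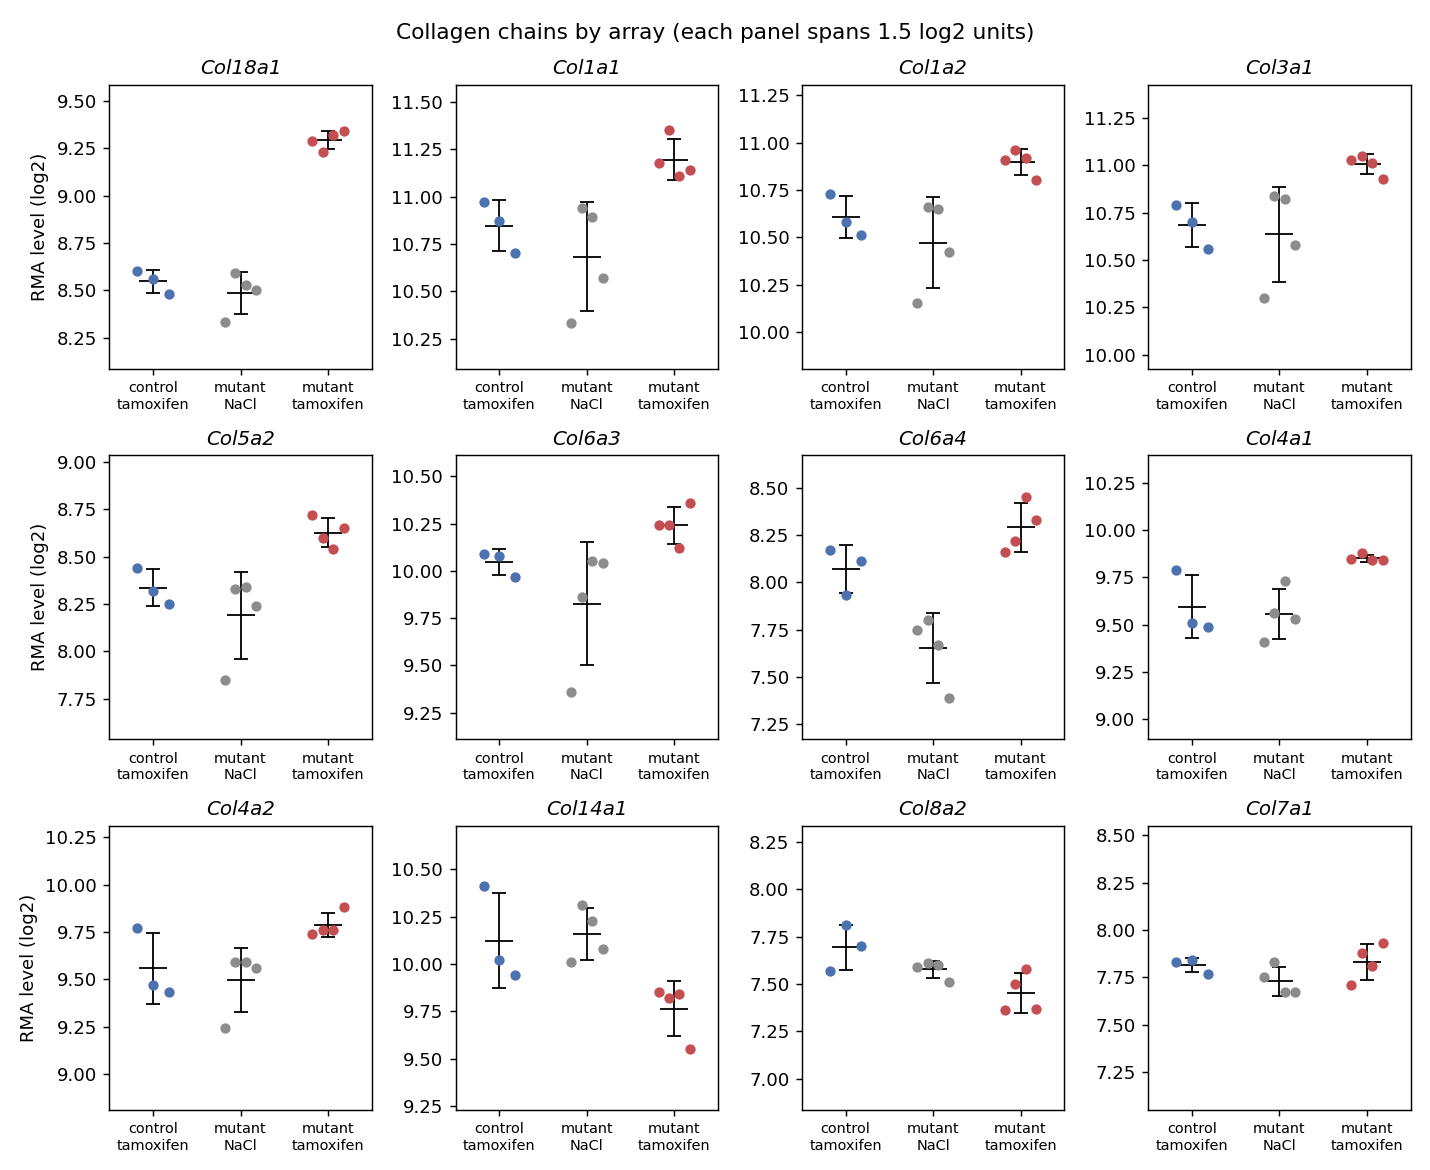
RMA level (log2) of 12 chains in each array, for control tamoxifen (blue, n = 3), mutant NaCl (grey, n = 4) and mutant tamoxifen (red, n = 4). Points are arrays and bars are the mean ± SD; every panel spans the same range of log2 units, and the red points of Col18a1, at 9.23 to 9.34, stand clear of all others while those of Col7a1 do not.

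Among the 11 fibrillar chains, 4 rose against mutant NaCl (36.4%, where 12.5% of all genes did) and none fell (10.7% of all genes), and no fibrillar chain passed against control tamoxifen, where the lowest adjusted p of the class was 0.101 (12.9% of all genes were higher and 11.8% lower). The chains that rose are those of type I collagen (Col1a1 and Col1a2), type III collagen (Col3a1) and Col5a2 of type V, which together make the mixed fibrils of the gut wall. Col1a1 was at 11.18, 11.35, 11.11 and 11.14 in mutant tamoxifen, at 10.97, 10.87 and 10.70 in control tamoxifen and at 10.33, 10.94, 10.89 and 10.57 in mutant NaCl. Every mutant tamoxifen array was above every other array, and mutant NaCl array 1 was the lowest of all. The difference was 0.51 ± 0.12 (SE, 1.42-fold, adjusted p = 0.0131) against mutant NaCl and 0.30 ± 0.14 (adjusted p = 0.144) against control tamoxifen. Col1a2, its partner in the type I trimer, was at 10.91, 10.96, 10.92 and 10.80 in mutant tamoxifen, at 10.73, 10.58 and 10.51 in control tamoxifen and at 10.15, 10.66, 10.65 and 10.42 in mutant NaCl. The groups were ordered as for Col1a1, and the differences were 0.43 ± 0.11 (adjusted p = 0.0143) and 0.29 ± 0.12 (adjusted p = 0.107).

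Col3a1, whose trimer holds a single kind of chain, was at 11.03, 11.05, 11.01 and 10.93 in mutant tamoxifen, at 10.79, 10.70 and 10.56 in control tamoxifen and at 10.30, 10.84, 10.82 and 10.58 in mutant NaCl. It separated mutant tamoxifen from both other groups, with 0.37 ± 0.11 against mutant NaCl (adjusted p = 0.0328) and 0.31 ± 0.13 against control tamoxifen (adjusted p = 0.101). Col5a2, a chain of the type V collagen that starts fibrils and sets their width, was at 8.72, 8.60, 8.54 and 8.65 in mutant tamoxifen, at 8.44, 8.32 and 8.25 in control tamoxifen and at 7.85, 8.33, 8.34 and 8.24 in mutant NaCl. Its difference was 0.44 ± 0.10 (adjusted p = 0.0121) against mutant NaCl and 0.29 ± 0.12 (adjusted p = 0.107) against control tamoxifen. Col5a1, the other main chain of type V, was at 8.78, 8.77, 8.74 and 8.76 in mutant tamoxifen, at 8.85, 8.76 and 8.72 in control tamoxifen and at 8.50, 8.80, 8.84 and 8.66 in mutant NaCl. Its groups overlapped, and the 95% intervals of its differences were -0.10 to 0.22 against mutant NaCl and -0.21 to 0.16 against control tamoxifen. The other 6 fibrillar chains, which are cartilage chains or minor ones (Col2a1, Col5a3, Col11a1, Col11a2, Col24a1 and Col27a1), did not pass in either comparison.

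Without mutant NaCl array 1, the differences against mutant NaCl were 0.38 for Col1a1 (adjusted p = 0.0141), 0.32 for Col1a2 (0.0166), 0.25 for Col3a1 (0.0408) and 0.32 for Col5a2 (0.00901), so all 4 still passed at a smaller size. Without that array, which also enters the shared estimate of spread, Col1a2 (0.27, adjusted p = 0.0376), Col3a1 (0.28, 0.0277) and Col5a2 (0.26, 0.0237) passed against control tamoxifen too. With only the arrays of the groups compared, Col1a1 (0.32, adjusted p = 0.0481), Col1a2 (0.31, 0.0314) and Col3a1 (0.31, 0.0284) passed against control tamoxifen. Col5a2 did not pass there. Col3a1 lost its call against mutant NaCl without mutant tamoxifen array 1 (0.36, adjusted p = 0.0699), array 2 (0.35, 0.0763) or array 3 (0.35, 0.0945), or without mutant NaCl array 4 (0.35, 0.0834). Col1a1, Col1a2 and Col5a2 kept theirs whichever single array was left out, and with female arrays alone Col1a1 (0.50, adjusted p = 0.066), Col1a2 (0.41, 0.0784) and Col3a1 (0.35, 0.131) lost theirs.

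The windows upstream of Col1a2 (chr6:4505368-4505617, plus strand) and Col3a1 (chr1:45311288-45311537, plus strand), fibrillar chains with like differences, are shown with the same marks; Col1a1 and Col5a2 have no entry.
Col1a2: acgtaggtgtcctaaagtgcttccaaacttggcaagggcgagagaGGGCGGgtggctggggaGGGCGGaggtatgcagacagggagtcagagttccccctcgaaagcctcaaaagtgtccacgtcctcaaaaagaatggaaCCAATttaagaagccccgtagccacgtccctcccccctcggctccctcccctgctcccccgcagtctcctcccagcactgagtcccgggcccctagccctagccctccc
Col3a1: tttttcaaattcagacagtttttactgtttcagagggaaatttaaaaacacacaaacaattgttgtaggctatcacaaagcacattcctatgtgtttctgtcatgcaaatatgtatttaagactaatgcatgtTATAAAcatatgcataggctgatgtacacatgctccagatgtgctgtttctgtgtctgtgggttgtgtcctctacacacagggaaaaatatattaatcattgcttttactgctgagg
The Col1a2 window holds 2 GC boxes and 1 CCAAT box and is 62% G and C. The Col3a1 window holds 1 TATA box and none of the other motifs and is 35.2% G and C, so the windows share none of these 3 motifs.

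In the basement membrane network of type IV collagen, 1 of 6 chains rose against mutant NaCl (16.7%, near the 12.5% of all genes) and none passed against control tamoxifen. Col4a1 and Col4a2 form the trimer found in nearly all basement membranes, and their genes lie head to head and share a promoter region. Col4a1 was at 9.85, 9.88, 9.84 and 9.84 in mutant tamoxifen, at 9.79, 9.51 and 9.49 in control tamoxifen and at 9.41, 9.56, 9.73 and 9.53 in mutant NaCl. All mutant tamoxifen arrays lay above all others, with control array 1 the nearest. The difference was 0.30 ± 0.08 (SE, 1.23-fold, adjusted p = 0.0227) against mutant NaCl and 0.27 ± 0.09 (adjusted p = 0.06) against control tamoxifen. The call against mutant NaCl was lost without mutant tamoxifen array 2 (0.29, adjusted p = 0.0572) or 3 (0.31, 0.0523), or without mutant NaCl array 1 (0.25, 0.0622), 2 (0.30, 0.052) or 4 (0.28, 0.0687). It was also lost with female arrays alone (0.29). A call against control tamoxifen was gained without control array 1 (0.35, 0.0168) or mutant NaCl array 3 (0.28, 0.034). The same call was gained with no sex term (0.26, 0.0396) or with array weights (0.32, 0.0154). Leaving out the lowest 25% (0.27, 0.0489) or 50% of genes (0.27, 0.0416) gave it too.

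Col4a2 was at 9.74, 9.76, 9.76 and 9.88 in mutant tamoxifen, at 9.77, 9.47 and 9.43 in control tamoxifen and at 9.24, 9.59, 9.59 and 9.56 in mutant NaCl. Control array 1 overlapped the mutant tamoxifen range, and the differences were 0.29 ± 0.09 (adjusted p = 0.0515) and 0.25 ± 0.11 (adjusted p = 0.12). Col4a5 and Col4a6, which form a trimer in smooth muscle and some epithelial basement membranes and also lie head to head, were low in mutant tamoxifen. Col4a5 was at 7.12, 7.13, 7.20 and 7.12 there, at 7.53, 7.32 and 7.25 in control tamoxifen and at 7.30, 7.35, 7.30 and 7.23 in mutant NaCl. Col4a6 was at 6.72, 6.73, 6.78 and 6.79 in mutant tamoxifen, at 7.16, 6.96 and 6.86 in control tamoxifen and at 6.85 or more in the 4 mutant NaCl arrays. For both chains every mutant tamoxifen array was below every other array, but neither difference passed: -0.22 for each against control tamoxifen (adjusted p = 0.0544 for Col4a5 and 0.0528 for Col4a6) and -0.15 (0.122) and -0.19 (0.0629) against mutant NaCl. Both chains have means under that of the median gene. Col4a3 and Col4a4 differed by -0.11 each against control tamoxifen and by -0.01 and -0.04 against mutant NaCl, and did not pass.

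Of the 6 type VI chains, 2 rose against mutant NaCl (33.3%, with 12.5% of all genes) and none passed against control tamoxifen. Col6a1 and Col6a2 assemble with 1 of the longer chains Col6a3, Col6a4, Col6a5 or Col6a6. Col6a4 was at 8.16, 8.22, 8.45 and 8.33 in mutant tamoxifen, at 8.17, 7.93 and 8.11 in control tamoxifen and at 7.75, 7.80, 7.67 and 7.39 in mutant NaCl. Here the mutant NaCl arrays stood apart below both tamoxifen groups, whose values overlapped. The difference was 0.64 ± 0.10 (SE, 1.55-fold, adjusted p = 0.00164) against mutant NaCl, under the threshold in all 22 alternatives, and 0.23 ± 0.12 (adjusted p = 0.184) against control tamoxifen. Without mutant NaCl array 4, the lowest, the second value was 0.31 and passed (adjusted p = 0.0109). With only the arrays of the groups compared it was also 0.31 and passed (adjusted p = 0.0245). Mutant NaCl against control tamoxifen gave -0.41 ± 0.12 for Col6a4, with an unadjusted p of 0.00521 and an adjusted p of 0.517.

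Col6a3 was at 10.24, 10.24, 10.12 and 10.36 in mutant tamoxifen, at 10.09, 10.08 and 9.97 in control tamoxifen and at 9.36, 9.86, 10.05 and 10.04 in mutant NaCl. Mutant tamoxifen was highest in every array, by a small margin over control arrays 1 and 2, and the value of 9.36 in mutant NaCl array 1 was far below the other 10. Its difference was 0.41 ± 0.13 (adjusted p = 0.0461) against mutant NaCl and 0.21 ± 0.15 (adjusted p = 0.358) against control tamoxifen. The first is close to the threshold and was lost in 13 of 22 alternatives, among them leaving out any 1 of the mutant tamoxifen arrays (0.37 to 0.48, adjusted p 0.0542 to 0.108), any 1 of the control arrays (0.41, 0.0562 to 0.0581) or mutant NaCl array 2 (0.43, 0.0851). Without mutant NaCl array 1 it was 0.25, and passed (adjusted p = 0.0356).

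Col6a1 was at 10.58, 10.65, 10.53 and 10.58 in mutant tamoxifen, at 10.85, 10.61 and 10.55 in control tamoxifen and at 10.33, 10.62, 10.70 and 10.52 in mutant NaCl. Col6a2 was at 10.39, 10.34, 10.30 and 10.41, at 10.44, 10.28 and 10.27, and at 10.00, 10.36, 10.50 and 10.19 in the same groups. Both overlapped between all groups, with 95% intervals against mutant NaCl of -0.15 to 0.24 for Col6a1 and -0.11 to 0.31 for Col6a2. Col6a5 (0.14 against mutant NaCl) and Col6a6 (-0.08) did not pass in either comparison.

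The Col6a4 window is shown because Col6a4 was the chain in which mutant NaCl stood apart from both tamoxifen groups (chr9:106096692-106096941, minus strand, same marks).
Col6a4: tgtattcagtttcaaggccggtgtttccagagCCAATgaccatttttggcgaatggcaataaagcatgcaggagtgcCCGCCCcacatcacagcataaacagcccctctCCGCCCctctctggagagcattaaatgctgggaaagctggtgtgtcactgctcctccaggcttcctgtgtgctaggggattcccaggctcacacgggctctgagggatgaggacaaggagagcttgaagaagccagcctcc
It holds 2 GC boxes and 1 CCAAT box and is 55.2% G and C.

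Partner chains of 1 trimer were also compared within each array, since their difference takes out what an array's chains share. Its value says nothing of relative amounts, since probes of different genes differ in brightness, but its change between groups can be read. These 8 pairs were set up after the chains' values were seen. The p-values and left-out ranges below therefore describe a choice made on the same values and are not an independent test. Col5a2 minus Col5a1 was -0.06, -0.17, -0.20 and -0.11 in mutant tamoxifen, -0.41, -0.44 and -0.46 in control tamoxifen and -0.65, -0.47, -0.50 and -0.42 in mutant NaCl. Mutant tamoxifen overlapped neither other group, and it was higher by 0.31 than control tamoxifen and by 0.38 than mutant NaCl. Leaving out 1 array at a time kept these differences at 0.28 to 0.33 and 0.33 to 0.41. Col6a3 minus Col6a1 lay between -0.41 and -0.22 in mutant tamoxifen and between -0.96 and -0.48 in the 7 others, with differences of 0.28 and 0.37 (0.21 to 0.32 and 0.29 to 0.45 with an array left out). For each of these pairs the two-sided exact permutation p was 0.0571 against 3 controls and 0.0286 against 4 mutant NaCl arrays, the smallest each design allows. Adjusted over the 16 comparisons all 4 were 0.183, but with these smallest values no adjusted p could have reached 0.05, so the adjusted test says nothing either way. The other 6 pairs, Col1a1 with Col1a2, Col4a1 with Col4a2, Col4a3 with Col4a4, Col4a6 with Col4a5, Col6a3 with Col6a2 and Col6a1 with Col6a2, overlapped between mutant tamoxifen and the 7 others.

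**Figure D3:**
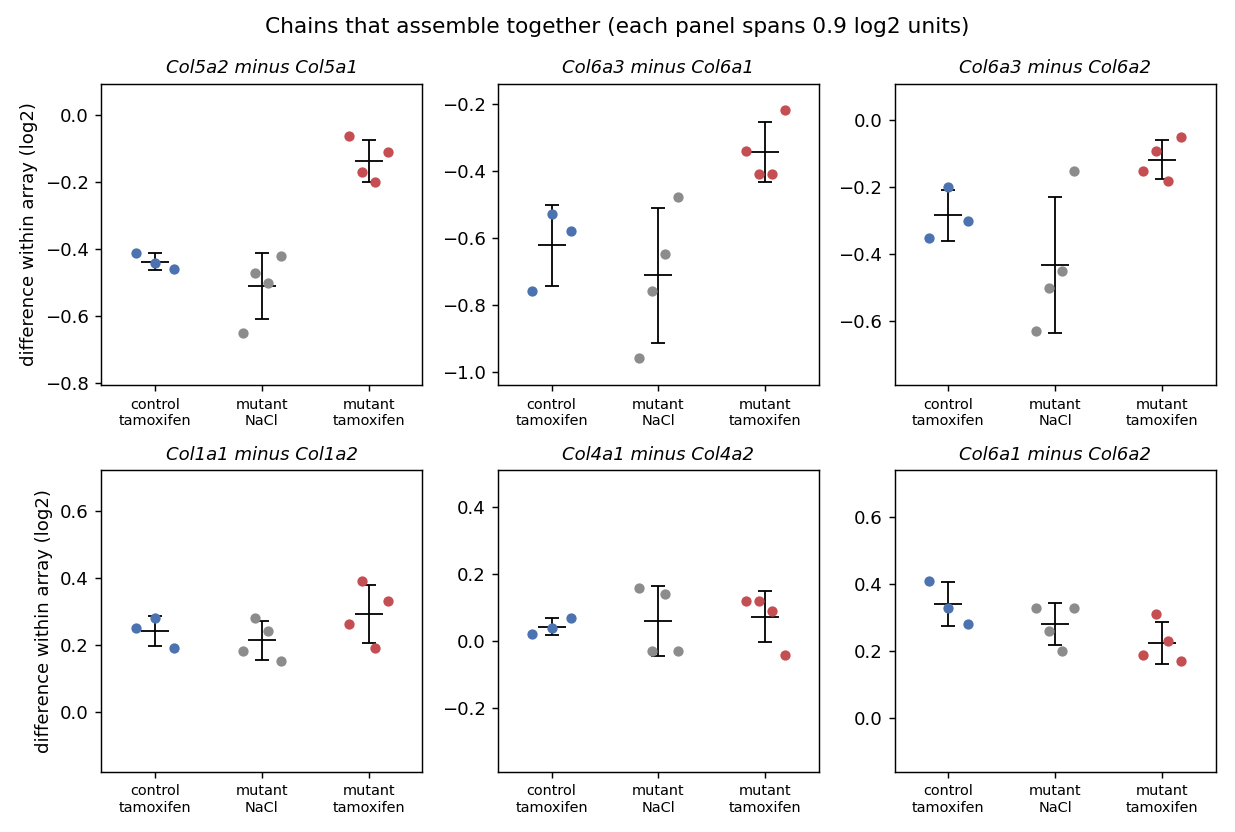
Difference in log2 level between chains that assemble together, within each array, for 6 of the 8 pairs. Points are arrays, bars are the mean ± SD, and every panel spans the same range; for Col5a2 minus Col5a1 the mutant tamoxifen arrays lie between -0.20 and -0.06 and the 7 others between -0.65 and -0.41, while Col1a1 minus Col1a2 overlaps.

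Type VII collagen, the anchoring fibril that fastens the basement membrane below hemidesmosomes in stratified epithelia, has the single chain Col7a1. It was at 7.71, 7.88, 7.81 and 7.93 in mutant tamoxifen, at 7.83, 7.84 and 7.77 in control tamoxifen and at 7.75, 7.83, 7.67 and 7.67 in mutant NaCl. The groups overlapped, and the 95% intervals of the difference were -0.16 to 0.15 against control tamoxifen and -0.03 to 0.24 against mutant NaCl.

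The chains that fell were few. Col14a1, a FACIT chain that binds fibril surfaces, was at 9.85, 9.82, 9.84 and 9.55 in mutant tamoxifen, at 10.41, 10.02 and 9.94 in control tamoxifen and at 10.01, 10.31, 10.23 and 10.08 in mutant NaCl. All mutant tamoxifen arrays lay below all others. The difference was -0.39 ± 0.11 (SE, adjusted p = 0.0288) against mutant NaCl and -0.34 ± 0.13 (adjusted p = 0.0826) against control tamoxifen. The call was lost without mutant tamoxifen array 3 (-0.41, adjusted p = 0.0636) or 4 (-0.32, 0.0738), or mutant NaCl array 2 (-0.34, 0.0852) or 3 (-0.37, 0.0747). A call of Col14a1 against control tamoxifen was gained without control array 3 (-0.43, 0.0423) and with no sex term (-0.36, 0.0418). None of the other 8 FACIT chains measured passed; Col12a1, the fibril-surface chain nearest to Col14a1 in build, differed by 0.22 (-0.00 to 0.44) against mutant NaCl and by 0.01 (-0.25 to 0.26) against control tamoxifen.

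Col8a2, a short-chain network collagen of vessel walls and other sheets, was at 7.36, 7.50, 7.58 and 7.37 in mutant tamoxifen, at 7.57, 7.81 and 7.70 in control tamoxifen and at 7.59, 7.61, 7.60 and 7.51 in mutant NaCl. Mutant tamoxifen overlapped both other groups. Its difference against control tamoxifen was -0.25 ± 0.08 (adjusted p = 0.04), and -0.13 ± 0.07 (adjusted p = 0.229) against mutant NaCl. Without control array 2 it was -0.16 (adjusted p = 0.321), and the call was also lost without mutant tamoxifen array 1 (-0.23, 0.0746), 2 (-0.26, 0.0568) or 4 (-0.23, 0.072), without control array 3 (-0.25, 0.079), and without mutant NaCl array 1 (-0.25, 0.0552), 2 (-0.25, 0.0578), 3 (-0.25, 0.055) or 4 (-0.24, 0.0661), so single arrays decide this call. The Col8a2 call was also lost with only the arrays of the groups compared (-0.24, 0.116) and after a second quantile normalisation (-0.23, 0.0627). The remaining short-chain members Col8a1 and Col10a1, the transmembrane chains Col13a1, Col23a1 and Col25a1, and Col26a1 and Col28a1 did not pass in either comparison.

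Mutant NaCl and control tamoxifen, the groups in which no deletion was to be induced, gave 0 called chains with limma, and 0% of all genes were called. At an unadjusted p under 0.05 there were 3 chains and 1625 genes, and the lowest adjusted p among the chains was 0.517. The chains nevertheless leaned to one side: 41 of 43 lay below 0, with a median of -0.09, where 10890 of 19944 genes did, with a median of -0.01. The exceptions were Col14a1 (0.05) and Col15a1 (0.11). The count was 41 when arrays were centred on their median and after a second quantile normalisation, 35 without control array 1 or with female arrays alone, and 38 without mutant NaCl array 1. No test was made of this count, since the chains share the same 7 arrays. Male against female mice gave 0 called chains (lowest adjusted p 0.851, 0 at an unadjusted p under 0.05), where 0.0351% of all genes, 7 of them, were called by limma.

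Chains also varied together within groups. Control array 1 was the highest of its group for 30 of 43 chains (38.9% of all genes), and control array 3 was the lowest for 35 (28.6% of all genes). In mutant NaCl, array 2 was the highest for 27 chains (25.7% of all genes) and array 1 the lowest for 20 (28.9%), among them 16 of the 22 brighter chains. In mutant tamoxifen, array 1 was the lowest for 25 chains (27.3%). The typical spread within a group was 0.102 over the chains and 0.0849 over all genes (SD, log2), and it was 0.2 for Col1a1, 0.209 for Col6a3 and 0.0822 for Col18a1. Fewer cells of a type and less RNA per cell cannot be told apart in such tissue samples.

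**Figure D4:**
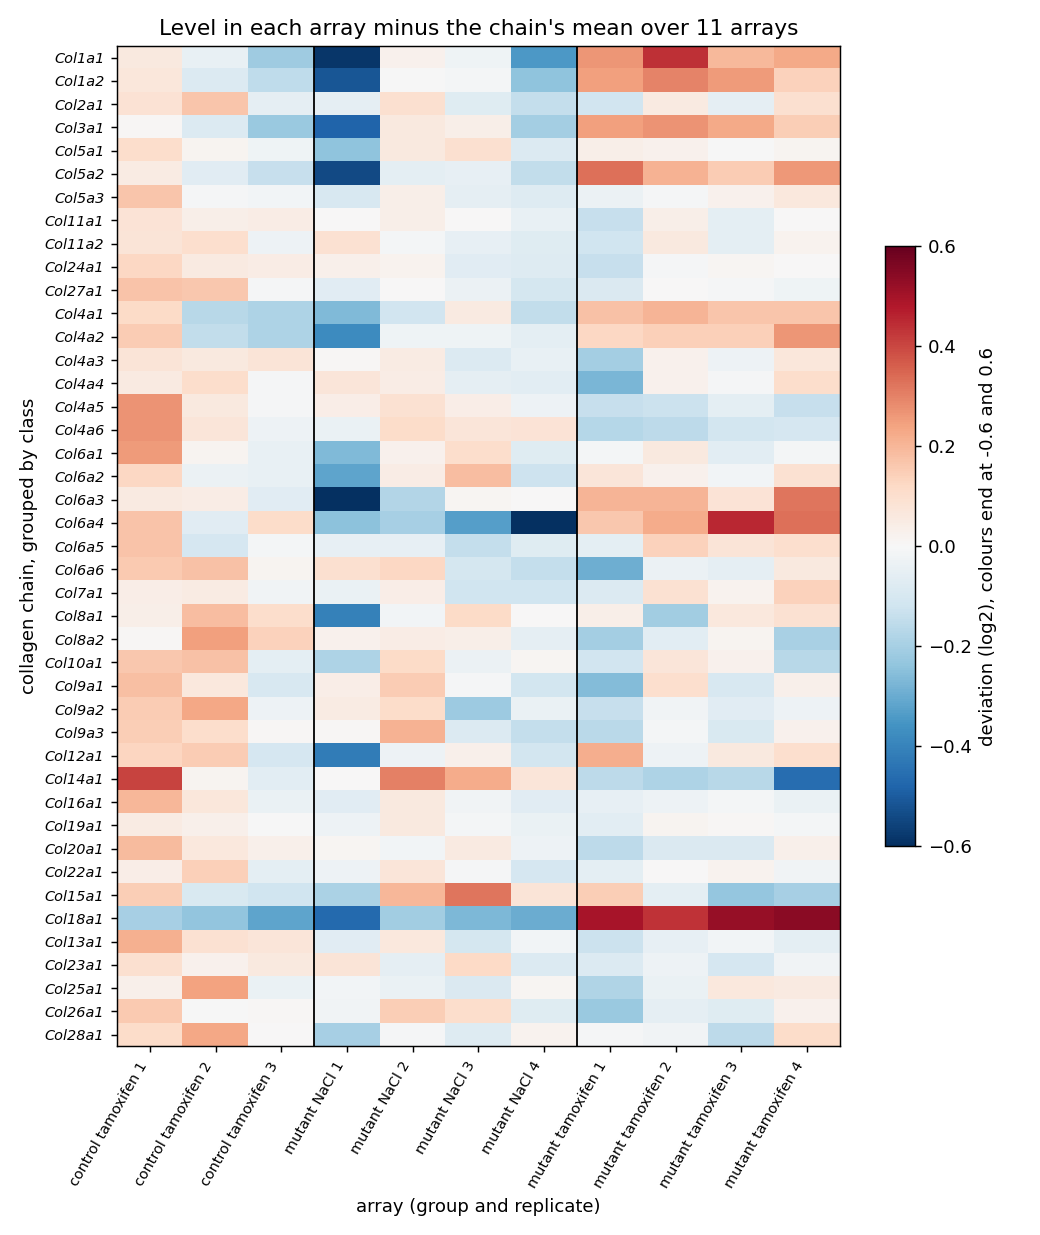
Level of each chain in each array minus the mean of that chain over the 11 arrays, on the log2 scale (red above, blue below, colours ending at -0.6 and 0.6), with chains grouped by class and arrays by group. Col18a1 is red in the 4 mutant tamoxifen arrays alone, and mutant NaCl array 1 is dark blue for Col1a1, Col1a2, Col3a1, Col5a2 and Col6a3.

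The other genes of collagen biology were counted by role, beside the shares of all genes given above (12.9% higher and 11.8% lower against control tamoxifen, 12.5% and 10.7% against mutant NaCl). Of 15 enzymes that modify proline and lysine in the chains, 1 was higher and 2 were lower against control tamoxifen (6.67% and 13.3%), and 1 was higher and 1 lower against mutant NaCl (6.67% each). P4hb, the shared subunit of prolyl 4-hydroxylase that is also a general disulphide isomerase, rose by 0.36 and 0.44 (adjusted p = 0.000872 and 0.00011). P4ha1, a catalytic subunit of the same enzyme, fell by 0.27 (adjusted p = 0.0287) and the lysyl hydroxylase Plod1 by 0.36 (0.0178) against control tamoxifen, while the prolyl 3-hydroxylase P3h2 fell by 0.44 against mutant NaCl (0.00885). Of 8 chaperones and export factors measured, 2 were higher and 1 was lower against control tamoxifen (25% and 12.5%), and 3 were higher and 1 lower against mutant NaCl (37.5% and 12.5%). Serpinh1, the collagen chaperone HSP47, fell by 0.35 and 0.29 (0.0111 and 0.0146). The secretory coat subunit Sec24d rose by 0.43 and 0.37 (0.00423 and 0.00434), and the large-cargo export factor Mia2 by 0.26 and 0.24 (0.018 and 0.0143), while Mia3 was 0.23 higher against mutant NaCl (0.0191).

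Of 7 propeptide-processing genes measured, 1 fell in both comparisons (14.3%, near the shares of all genes) and none rose. It was Pcolce2, an enhancer of procollagen cleavage, with -0.67 and -0.57 (adjusted p = 0.00111 and 0.00103). Of 4 crosslinking oxidases measured, Lox alone was higher in both comparisons (25%). Loxl3 alone was lower against mutant NaCl (25%), with a difference of -0.26 (adjusted p = 0.00834). Lox, which starts the crosslinks of fibrils, was at 9.07, 8.80, 8.78 and 9.07 in mutant tamoxifen, at 8.61, 7.80 and 8.09 in control tamoxifen and at 7.53, 8.41, 8.42 and 8.58 in mutant NaCl. All mutant tamoxifen arrays lay above the others, with differences of 0.87 ± 0.25 (adjusted p = 0.0278) and 0.69 ± 0.22 (0.0411). Both calls were near the threshold. With robust variances both were lost (0.87, adjusted p = 0.0502, and 0.69, 0.0706). Against control tamoxifen it was lost without control array 2 (0.68, adjusted p = 0.196) or 3 (0.80, 0.0665) or mutant tamoxifen array 1 (0.81, 0.056) or 4 (0.81, 0.0513). Against mutant NaCl it was lost without mutant NaCl array 1 (0.47, 0.0679), 2 (0.77, 0.0513) or 4 (0.77, 0.0566), mutant tamoxifen array 1 (0.62, 0.103), 2 (0.71, 0.0727) or 4 (0.62, 0.0984), or control array 3 (0.69, 0.0513).

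Of 8 collagen receptors measured, 1 was higher and 4 were lower against control tamoxifen (12.5% and 50%), and 1 was higher and 3 were lower against mutant NaCl (12.5% and 37.5%), so the share higher was near that of all genes. Itga2, the collagen-binding integrin chain of epithelia and platelets, was at 10.59, 10.59, 10.58 and 10.83 in mutant tamoxifen, at 9.27, 9.35 and 9.33 in control tamoxifen and at 9.44, 9.35, 9.61 and 9.48 in mutant NaCl. The groups were far apart, and Itga2 rose by 1.31 ± 0.08 (2.48-fold, adjusted p = 1.21e-05) and 1.18 ± 0.07 (2.27-fold, 7.69e-06). Collagen receptors typical of smooth muscle and fibroblasts fell: Itga1 by 0.32 and 0.35 (adjusted p = 0.0131 and 0.00407), Itga11 by 0.39 and 0.48 (0.0274 and 0.00516) and the receptor kinase Ddr2 by 0.37 and 0.47 (0.00475 and 0.000712).

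Of 15 proteins that bind or organise fibrils, 1 was higher and 4 were lower against control tamoxifen (6.67% and 26.7%). Against mutant NaCl 1 was higher and 7 were lower (6.67% and 46.7%, where 10.7% of all genes were lower). The leucine-rich proteoglycan Ogn fell by 0.89 and 0.90 (adjusted p = 9.73e-05 and 2.81e-05) and the fibril-spacing protein Tnxb by 0.69 and 0.68 (0.00121 and 0.000545), in opposite direction to the type I and III chains. Prelp fell by 0.45 and 0.54 (0.0137 and 0.0028), and Lum fell by 0.43 against mutant NaCl (0.0151). Of 8 genes of collagen degradation and uptake, 4 were higher against control tamoxifen (50%) and 5 against mutant NaCl (62.5%), and none was lower, with a median of 0.39 in each comparison. The collagenase Mmp13 rose by 0.95 and 1.12 (0.0148 and 0.00336), the gelatinase Mmp9 by 0.66 and 0.73 (0.00201 and 0.000545), the membrane collagenase Mmp14 by 0.47 and 0.49 (0.00463 and 0.00168) and the neutrophil collagenase Mmp8 by 0.44 and 0.47 (0.00169 and 0.000584). Of 13 partners of type IV collagen in the basement membrane, 2 rose and 2 fell in each comparison, 15.4% each way, near the shares of all genes. Laminin chains Lama1 (0.50 and 0.45, adjusted p = 0.00146 and 0.00114) and Lamb1 (0.32 and 0.31, 0.0265 and 0.0155) rose, and Lamb2 (-0.42 and -0.42, 0.00461 and 0.00227) and the proteoglycan Agrn (-0.35 and -0.41, 0.0371 and 0.00968) fell. Mutant NaCl against control tamoxifen gave 0 called genes in each of these 8 lists with limma.

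Some of these calls depended on the fit. With only the arrays of the groups compared, calls against control tamoxifen were lost for Itga11 (-0.36, adjusted p = 0.0585) and P4ha1 (-0.24, 0.0622). Mia2 (0.25, 0.065) and Prelp (-0.45, 0.0511) lost theirs there too. Leaving out 1 array also ended calls. Against control tamoxifen, control array 2 ended those of Serpinh1 (-0.28, adjusted p = 0.104), Mia2 (0.20, 0.154), Mmp14 (0.38, 0.0547), Itga1 (-0.30, 0.0847), Itga11 (-0.41, 0.096), Lamb1 (0.29, 0.141), Agrn (-0.24, 0.269), P4ha1 (-0.27, 0.132) and Plod1 (-0.41, 0.055). Mutant tamoxifen array 3 ended those of Prelp (-0.35, 0.104), Mmp13 (0.82, 0.0976), Itga1 (-0.23, 0.102), Itga11 (-0.43, 0.0706), Lamb1 (0.30, 0.114), Agrn (-0.33, 0.143) and Plod1 (-0.35, 0.0867). Control array 1 ended those of Itga11 (-0.30, 0.0687), Agrn (-0.35, 0.0697), P4ha1 (-0.26, 0.0724) and Plod1 (-0.31, 0.0522). Mutant tamoxifen array 1 ended that of P4ha1 (-0.26, 0.0555), array 2 those of Itga11 (-0.35, 0.0559) and Agrn (-0.34, 0.0665), array 4 that of Agrn (-0.33, 0.0625), and control array 3 that of Lamb1 (0.29, 0.0653). Against mutant NaCl, the calls of Mia3 (0.21 to 0.22, 0.0516 to 0.0604, without mutant tamoxifen array 1 or mutant NaCl array 1, 2 or 4), Lamb1 (0.30 without mutant tamoxifen array 3, 0.0521, and 0.29 without mutant NaCl array 4, 0.051) and Lum (-0.41 without mutant tamoxifen array 3, 0.0521) were lost. Mmp8, Mmp9, Lama1 and Itga11 had mean levels under that of the median gene, 7.96. Mmp8 was the dimmest of them, with means of 5.46 in mutant tamoxifen, 5.07 in control tamoxifen and 5.00 in mutant NaCl. Both filters on dim genes left out Mmp8, and the stricter one left out Mmp9, Lama1 and Itga11 too. Without a detection call, whether their transcripts were present in every group was not measured. P4hb, Sec24d, Itga2, Ddr2, Ogn, Tnxb, Pcolce2, Mmp8, Mmp9, Lama1 and Lamb2 kept their calls in both comparisons whichever single array was left out. With female arrays alone, which leave 1 control, the calls against control tamoxifen were lost for Sec24d (0.26, adjusted p = 0.0865), Ddr2 (-0.33, 0.0811), Pcolce2 (-0.58, 0.0519), Mmp9 (0.50, 0.0886), Lama1 (0.44, 0.0742) and Lamb2 (-0.35, 0.0811) among these 11, and for Mmp13 (0.63, 0.185), Prelp (-0.27, 0.191), Lox (1.18, 0.0723), Mia2 (0.35, 0.0738), Itga1 (-0.30, 0.0669), Itga11 (-0.38, 0.13), Plod1 (-0.31, 0.234), P4ha1 (-0.32, 0.0985), Agrn (-0.44, 0.129) and Lamb1 (0.34, 0.185). Against mutant NaCl they were lost for Mia3 (0.23, 0.0819), Lum (-0.43, 0.0767), Agrn (-0.36, 0.0636) and Lamb1 (0.29, 0.0841).

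Markers of other cell types in the samples were followed beside the chains. Of all genes, 12.9% were higher and 11.8% lower against control tamoxifen, and 12.5% and 10.7% against mutant NaCl. All 12 smooth muscle markers fell in both comparisons, with a median of -0.49 and -0.45, and their mean level was 11.27 to 11.39 in mutant tamoxifen against 11.81 to 11.96 in control tamoxifen and 11.67 to 11.96 in mutant NaCl. Of 12 fibroblast markers, 2 were higher and 3 lower against control tamoxifen (16.7% and 25%). Against mutant NaCl 2 were higher and 6 lower (16.7% and 50%). The mean level of the fibroblast list was 9.90 to 10.10 in mutant tamoxifen, 10.11 to 10.35 in control tamoxifen and 10.00 to 10.36 in mutant NaCl. Of 8 subepithelial fibroblast markers, 2 were higher and 1 lower against control tamoxifen (25% and 12.5%). Against mutant NaCl 1 was higher and 1 lower (12.5% each), near the shares of all genes. No endothelial marker of 12 passed with limma in either comparison (2 and 3 at an unadjusted p under 0.05). Of 8 pericyte markers none passed against control tamoxifen (4 at an unadjusted p under 0.05) and 2 were lower against mutant NaCl (25%). Of 10 epithelial markers 3 and 5 were higher (30% and 50%), with a list mean of 12.04 to 12.21 in mutant tamoxifen and 11.84 to 11.98 in the others. Of 8 neutrophil markers 6 were higher in both comparisons (75%), with a list mean of 7.80 to 8.25 against 7.12 to 7.39. Mmp8 is in the neutrophil list and in that of collagen degradation. Of 8 markers of enteric neurons and glia 5 and 3 were lower (62.5% and 37.5%), and of 10 macrophage markers 3 and 0 (30% and 0%). Of 7 adipocyte markers 1 was lower in each comparison (14.3%), near the shares of all genes. No squamous marker of 10 passed with limma (2 and 0 at an unadjusted p under 0.05), but the list was not level between groups. Its median difference was 0.93 against control tamoxifen, with 10 of 10 markers above 0, and 0.19 against mutant NaCl, with 8 of 10. For mutant NaCl against control tamoxifen it was 0.68, with 10 of 10 above 0. The median of the sex term was -1.50 (male minus female). Dcn and Lum are in the fibroblast list and in that of fibril-binding proteins. The part of these cell types in the differences of the chains was not tested.

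Mutant NaCl array 1, the lowest for many chains, was also the lowest of its group for every list of collagen biology, among them crosslinking (8.00). The same held for the fibroblast (10.00), subepithelial fibroblast (9.05), smooth muscle (11.67) and endothelial lists (8.75). It held too for the pericyte (9.01), enteric neuron and glia (7.48) and adipocyte lists (7.54). It did not hold for the squamous (9.37), neutrophil (7.28), macrophage (9.97) and epithelial lists (11.91).

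**Figure D5:**
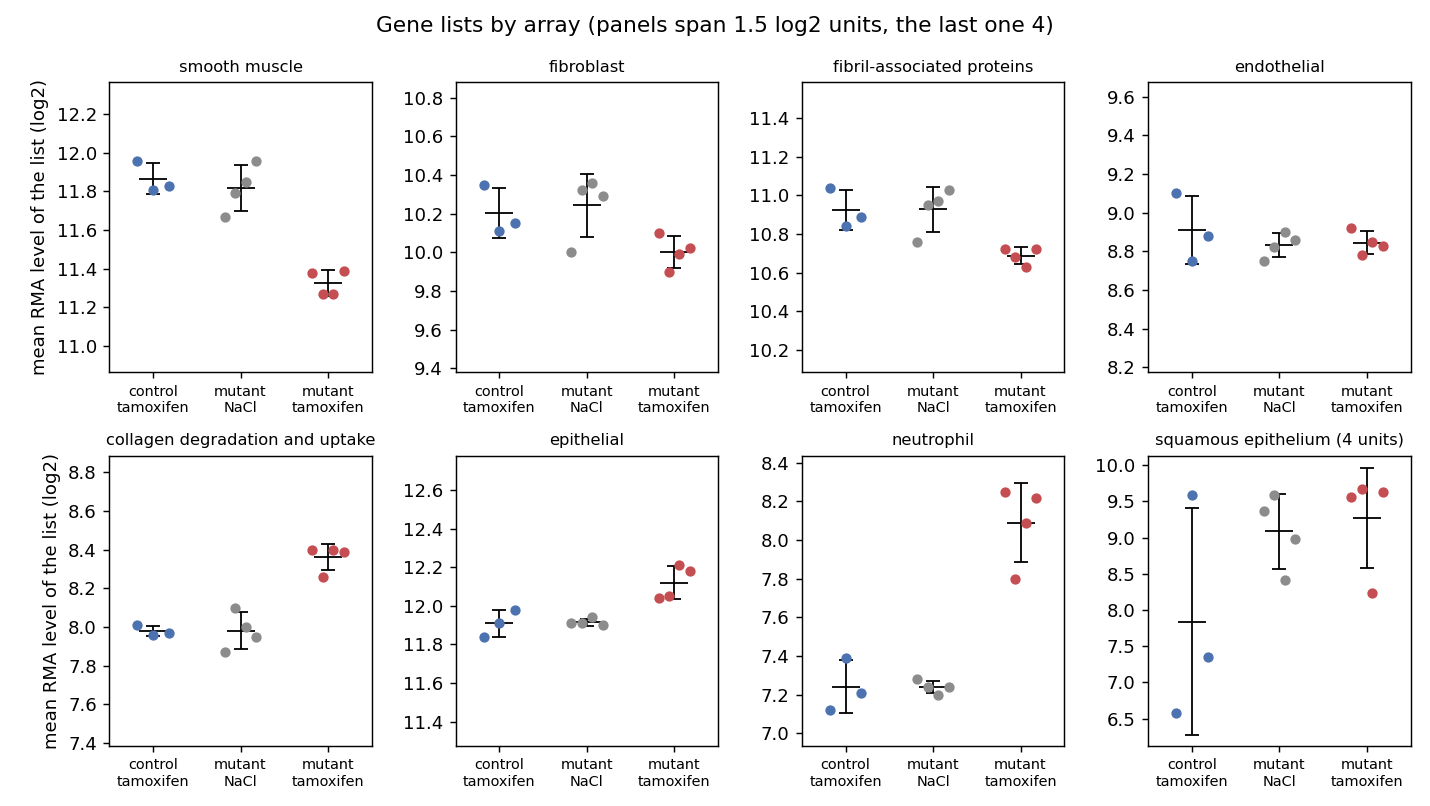
Mean RMA level (log2) of 8 gene lists in each array, for control tamoxifen (blue, n = 3), mutant NaCl (grey, n = 4) and mutant tamoxifen (red, n = 4), with the mean ± SD. In mutant tamoxifen the smooth muscle list lies at 11.27 to 11.39, below all other arrays, and the lists of collagen degradation (8.26 to 8.40), epithelial and neutrophil genes lie above all other arrays.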

How the data were processed

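The deposited table gives each transcript cluster a log2 level in every array. Per the labels' protocols the authors made it with RMA, a background correction followed by quantile normalisation and a summary over probes, in Affymetrix Expression Console 1.1 after reading images with Command Console 2.0. A quantile step gives all arrays the same overall distribution, so differences are relative to the array as a whole. Partek is listed in the submitters' processing notes with no stated purpose. The genome build is not given in the sources used here.

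Of 35556 transcript clusters, 21797 had 1 symbol in the platform annotation, 1613 had several and 12146 were not listed. Symbols were updated by accession through RefSeq's table for GRCm38.p6 (2 changed, 21 not found there and kept). For the 1001 genes with several clusters the cluster with the highest mean was used, also for Col6a5 and Col6a6, the only chains with 2. This gave 19944 genes, with no filter on dim ones.

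All 11 arrays were fitted per gene with limma 3.58.1 in R 4.3.3, with terms for group and sex, moderated variances with a trend and two-sided tests. Values after ± are SE and intervals are 95%. The members, gene lists and tests were chosen with earlier results of these data known. Values in every array are given for chains that passed in any comparison and for the major trimers; Col4a5 and Col4a6 were added after their values were seen. From each pathway list at most 4 genes that passed, by size, are named. The precision rests on 3 or 4 arrays per group. The fit was tested on simulated data. Alternatives were to drop the sex term, to use the 7 female arrays, to fit each comparison on its own arrays, to leave out the dimmest 25% or 50% of genes, centring, a second quantile normalisation, no variance trend, robust variances, array weights, the mean of a gene's clusters, and leaving out each array.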

Additional observations from a re-analysis of the deposited data

Results flagged for a closer look

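In 5 of 86 groups of 4 arrays (43 chains, both groups of that size), 1 array stood apart from the other 3 by Dixon's criterion, and chance gives about 4.3, roughly 1 in 20. Col14a1 was at 9.55 in mutant tamoxifen array 4, where the others were at 9.82 to 9.85. Col4a2 was at 9.88 in the same array, above 9.74 to 9.76, and at 9.24 in mutant NaCl array 1, below 9.56 to 9.59. Col24a1 was at 7.10 in mutant tamoxifen array 1, below 7.23 to 7.25. Col4a5 was at 7.20 in mutant tamoxifen array 3, above 7.12 to 7.13.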

How the results depend on the processing

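Under 22 alternatives, 1484 values of named genes were recomputed and none changed direction in a called result; 1358 stayed on the same side of the threshold, 110 lost their call and 16 gained one. The number of chains called higher against control tamoxifen, 1 with 2570 of all genes, became 2 with no sex term (2858 genes). It was 5 with only the arrays of the groups compared (2034 genes). It was 2 with the lowest 25% of genes left out (2662 of 14958 genes) and 2 with the lowest 50% left out (2369 of 9972). It was 2 with array weights (2763 genes), and 1 to 4 with an array left out (1349 to 2530 genes). The number called lower, 1 with 2345 of all genes, became 5 with no sex term (2799 genes) and 0 with only the arrays compared (1673). It was 3 with the lowest 25% left out (2343 genes) and 0 with the lowest 50% left out (1662). It was 0 after a second quantile normalisation (2183 genes), 3 with no variance trend (2421) and 2 with robust variances (2365). With an array left out it was 0 to 4 (1168 to 2198 genes). Against mutant NaCl the 8 chains called higher, with 2498 of all genes, became 3 with female arrays alone (1742 genes). They became 5 to 8 with an array left out (1703 to 2666 genes). Under the other settings they were 7 to 9 (2316 to 2657 genes), with 7 after a second quantile normalisation (2398). The single chain called lower, with 2136 of all genes, became 2 with only the arrays compared (2093 genes). It was 2 with the lowest 25% left out (2230 genes) and 2 with array weights (2308). With an array left out it was 0 to 3 (1447 to 2258 genes). The cause of these changes was not tested, and the female setting has fewer arrays (7) and the filters fewer genes. The filters leave 42 and 22 chains, and the stricter leaves out Col8a2. Mutant NaCl against control tamoxifen gave 0 called chains under all 22 alternatives, and male against female 0 under the 19 that could be run; no sex term, female arrays alone and only the arrays compared were not run for it. No paired analysis was made, since each array is from a different mouse and the labels give no pairing.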
